A study of Mus musculus with 6 samples.

Results

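The ERK pathway feedback genes are transcripts that rise when ERK is active and whose products then restrain or relay that activity. The 10 genes described here are Dusp4, Dusp5, Dusp6, Spry1, Spry2, Spry4, Spred1, Spred2, Etv4 and Etv5. They were chosen by symbol for what they are known to do, with earlier results of these data already known. All 10 were found among the 46095 gene symbols of the count table, and all 10 passed the filter on low counts that left 14120 genes for testing. They were measured in BV2, an immortalized mouse microglial cell line grown in six-well plates. The CON group was left untreated, and the sTREM-1 group was incubated with recombinant sTREM-1 protein, the soluble form of the myeloid receptor TREM-1, at 1 μg/mL for 6 h. Each group had 3 RNA-seq libraries, and since the labels name no separate cultures or passages, the p-values measure the spread between libraries of 1 cell line.

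In the ERK pathway, receptors at the membrane act through GRB2 and SOS to load RAS with GTP, and RAS then drives RAF, MEK and ERK in turn. Active ERK phosphorylates transcription factors of the ETS family, and among the genes induced are several that switch the pathway off again. The dual-specificity phosphatases encoded by Dusp4, Dusp5 and Dusp6 remove phosphate from ERK, with the DUSP4 and DUSP5 proteins acting in the nucleus and DUSP6 in the cytoplasm. Sprouty and Spred proteins act upstream, between the receptors and RAF, and the Spred proteins bring the RAS inhibitor neurofibromin to the membrane. Etv4 and Etv5 encode ETS factors of the PEA3 family, whose transcripts are common readouts of ERK activity. The levels of these transcripts are often read as a record of ERK signaling, but ERK phosphorylation itself was not measured in these libraries.

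Compared with the CON group, 4 of the 10 feedback genes rose after sTREM-1, which were Spred1, Spred2, Dusp6 and Etv5, and 1 gene, Spry4, fell. The remaining 5 genes, Dusp4, Dusp5, Spry1, Spry2 and Etv4, did not pass the test. The rises were small, between 8.91% and 14.6%. A gene was called where its adjusted p-value, from the quasi-likelihood test of edgeR over all tested genes, was under 0.05, and 30.5% of all tested genes were called, 16.5% as higher and 14.1% as lower. Among the 11018 tested genes at or above the mean level of the lowest feedback gene, in CPM (counts scaled to library size), 37.8% were called. The groups did not overlap for 4 of the 10 feedback genes, all 4 of them higher, against 40.7% of all tested genes (21.3% higher and 19.4% lower). The median log2 fold change over the 10 genes was -0.03, beside -0.0017 over all tested genes, and the median size of change regardless of direction was 0.13 for the feedback genes and 0.13 for all tested genes. The single lower call, Spry4, was lost with DESeq2, with edgeR's exact test, without a filter on low counts and in 4 of the 6 fits that left out a library, and its groups overlapped. With a change of at least 1.2-fold required as well, 0 were called higher and 1 lower (10.7% of all tested genes were called). At 1.5-fold none was called by edgeR (2.13% of all tested genes). An unadjusted edgeR p under 0.05 was passed by 4 higher and 1 lower feedback genes, against 2874 higher and 2593 lower of the 14120 tested genes. The feedback genes together took 0.0771% to 0.0780% of the counts in the CON libraries and 0.0792% to 0.0796% after sTREM-1. In RNA from bulk cultures, fewer cells expressing a gene and less RNA per cell cannot be told apart.

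**Figure D1:**
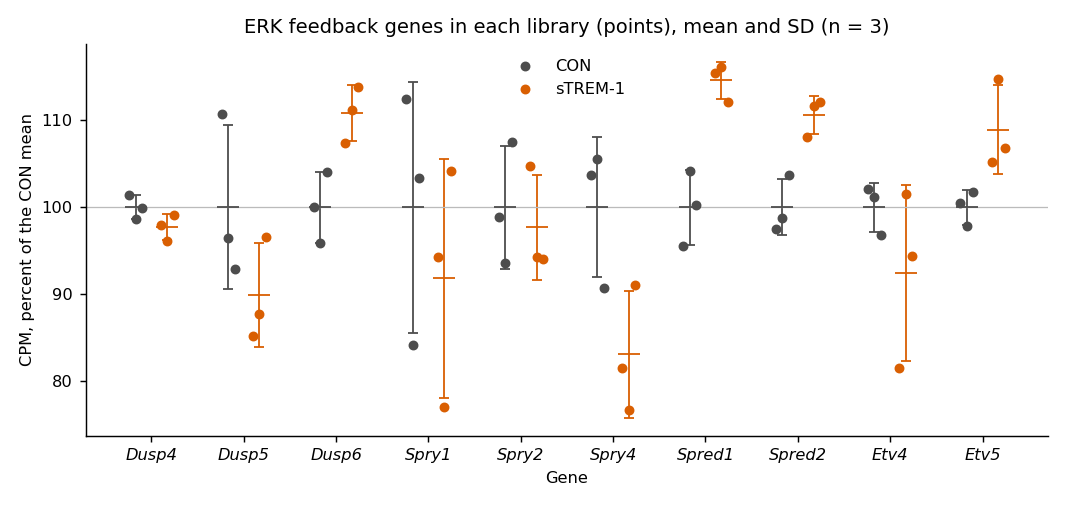
Level of each of the 10 feedback genes in every library, as CPM in percent of the CON mean of that gene (vertical axis), with genes along the horizontal axis, points for libraries and dashes and bars for the mean and SD of 3 libraries. The sTREM-1 points of Spred1, Spred2, Dusp6 and Etv5 all lie above the CON points, and those of the other 6 genes overlap them.

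The promoter windows of 4 genes are given, which set a pair of ERK phosphatases and a pair of Spred genes side by side. Of the windows read, only these 4 held a motif marked below. The 4 are the phosphatase that rose, the phosphatase of the lowest count that did not pass the test, and the Spred genes, which both rose. Each window holds the 250 bases before the RefSeq transcription start, 5′ to 3′ on the gene's strand, from RefSeq on GRCm38.p6. Capitals mark the core CGGAA that ETS factors bind, read on either strand, and the CArG box that serum response factor binds. The marked motifs do not overlap each other.
Dusp5 (chr19:53528895-53529144, plus strand): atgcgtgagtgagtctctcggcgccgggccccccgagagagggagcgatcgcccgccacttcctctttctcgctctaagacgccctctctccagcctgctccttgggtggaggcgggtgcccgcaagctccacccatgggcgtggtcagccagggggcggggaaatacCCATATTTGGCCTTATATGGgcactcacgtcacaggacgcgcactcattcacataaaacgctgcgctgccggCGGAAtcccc
Dusp6 (chr10:99262981-99263230, plus strand): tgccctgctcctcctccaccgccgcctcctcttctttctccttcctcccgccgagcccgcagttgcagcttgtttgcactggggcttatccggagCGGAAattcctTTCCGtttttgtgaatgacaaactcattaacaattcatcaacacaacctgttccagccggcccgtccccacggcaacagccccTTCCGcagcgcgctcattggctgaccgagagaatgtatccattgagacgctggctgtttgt
Spred1 (chr2:117120821-117121070, plus strand): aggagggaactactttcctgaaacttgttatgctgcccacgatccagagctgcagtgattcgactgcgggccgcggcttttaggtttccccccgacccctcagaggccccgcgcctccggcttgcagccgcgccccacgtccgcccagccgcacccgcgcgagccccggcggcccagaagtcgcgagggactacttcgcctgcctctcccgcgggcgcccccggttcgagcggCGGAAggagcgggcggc
Spred2 (chr11:19924192-19924441, plus strand): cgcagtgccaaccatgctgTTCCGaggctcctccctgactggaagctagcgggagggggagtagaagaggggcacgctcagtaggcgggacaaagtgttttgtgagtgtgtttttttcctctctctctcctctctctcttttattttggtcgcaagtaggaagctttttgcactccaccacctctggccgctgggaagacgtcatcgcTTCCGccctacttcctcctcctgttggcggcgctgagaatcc
The Dusp5 window held 2 CArG boxes and 1 CGGAA core, the Dusp6 window held 3 CGGAA cores, and the Spred1 and Spred2 windows held 1 and 2. RefSeq windows were read for 7 of the 10 genes, as 8 windows, since Etv5 has 2 starts. No window was read for Dusp4, for Etv4 or for Spry4, the gene that fell. The motif counts below therefore leave these genes out. A CArG box was found in 1 of these 8 windows and in 1.47% of all 32851 promoter windows of the same length. The CGGAA core was found in 4 of the 8 windows, which are the 4 printed above, and in 25.2% of all windows. Neither motif was found in the windows of Spry1 and Spry2 or in either window of Etv5, a gene that rose. The AP-1 motif TGANTCA and the cyclic AMP response element TGACGTCA were found in none of the 8, and in 6.75% and 1.55% of all windows. The CGGAA core and the CArG box were chosen after the sequences were seen, and a match to these letters is not a measured binding site.

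The Spred genes were the family in which every feedback member rose. Spred1, on chromosome 2 from 117121374 to 117182279 of GRCm38, had 148, 162 and 156 CPM in the CON libraries and 179, 180.2 and 174 CPM after sTREM-1. All 3 sTREM-1 libraries lay above all 3 CON libraries, with a gap larger than the SD of either group. The level was 14.6% higher, a log2 fold change of 0.20 with a standard error of 0.03 and a 95% interval from 0.13 to 0.26 (edgeR adjusted p = 8.5e-06). This was the smallest p-value among the 10 genes. Spred2, on chromosome 11 from 19924375 to 20024026, had 78.5, 79.5 and 83.4 CPM in the CON libraries and 87.0, 89.8 and 90.2 CPM after sTREM-1. Again the groups did not overlap, although CON replicate 3 came close to the lowest sTREM-1 library. The log2 fold change of Spred2 was 0.15 with a standard error of 0.04 (edgeR adjusted p = 0.00199). Both genes stayed past the threshold under all 12 alternative settings, with log2 fold changes from 0.16 to 0.22 for Spred1 and from 0.13 to 0.17 for Spred2.

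The third Spred gene, Spred3, is no feedback gene of the set and moved the other way. It had 54.6, 50.7 and 55.0 CPM in the CON libraries and 44.4, 43.5 and 41.8 CPM after sTREM-1, so that every treated library lay below every untreated one. Its log2 fold change was -0.30 with a standard error of 0.05 (edgeR adjusted p = 3.5e-06). Exons of Spred3 overlap those of Ggn on the opposite strand, which had 37 to 70 counts per library against at least 1658 for Spred3. The log2 ratio of Spred1 to Spred3 within a library was 1.54 ± 0.12 (SD, n = 3) in the CON group and 2.04 ± 0.02 (SD, n = 3) after sTREM-1. The log2 ratio of Spred2 to Spred3 was 0.59 ± 0.06 (SD, n = 3) and 1.04 ± 0.07 (SD, n = 3) in the same order. Within-library ratios were compared for 6 pairs of genes picked after their values were seen. They are ratios of CPM, not of levels per length, so only their change between the groups is read. In all 6 the ratio was higher in every sTREM-1 library than in every CON library, which is given as a description because of that choice. An exact permutation test of the libraries gave p = 0.1 for each ratio, the smallest value it can give with 3 against 3.

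Of the ERK phosphatases, Dusp6 rose and the nuclear enzymes Dusp4 and Dusp5 did not pass the test. Dusp6, on chromosome 10 from 99263231 to 99267489, had 40.6, 38.9 and 42.2 CPM in the CON libraries and 43.6, 45.1 and 46.2 CPM after sTREM-1. The groups did not overlap, and CON replicate 2 was the lowest library. The fold change was 1.11 (95% interval 1.04 to 1.18), or 0.15 on the log2 scale with a standard error of 0.05 (edgeR adjusted p = 0.0152). Without CON replicate 2 the log2 fold change of Dusp6 was 0.12 (edgeR adjusted p = 0.0925), and without sTREM-1 replicate 3 it was 0.13 (edgeR adjusted p = 0.0769). The call was thus lost in each of these fits.

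Dusp4, on chromosome 8 from 34807297 to 34819894, had the highest level per length of the 10 transcripts, with 371, 361 and 366 CPM in the CON libraries and 359, 352 and 363 CPM after sTREM-1. The groups overlapped. Its log2 fold change was -0.03, with a 95% interval from -0.08 to 0.02 (edgeR adjusted p = 0.332), which leaves room for a rise of at most 1.01-fold. At least 14409 counts per library stood behind this value. Dusp5, on chromosome 19 from 53529109 to 53542431, had 10.9, 9.51 and 9.16 CPM in the CON libraries and 8.41, 8.66 and 9.53 CPM after sTREM-1. Its groups overlapped through sTREM-1 replicate 3. The log2 fold change of Dusp5 was -0.16 with a 95% interval from -0.36 to 0.05 (edgeR adjusted p = 0.259), an interval wider than that of Dusp4, and without CON replicate 1 the value was -0.0765. An antisense transcript of GENCODE M21 overlaps exons of Dusp5, and the strand setting of the counting is not given in the sources used here. The log2 ratio of Dusp6 to Dusp5 within a library was 2.04 ± 0.16 (SD, n = 3) in the CON group and 2.34 ± 0.06 (SD, n = 3) after sTREM-1.

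Of the Sprouty genes, which encode inhibitors of receptor tyrosine kinase signaling, Spry4 fell and Spry1 and Spry2 did not pass the test. Spry4, on chromosome 18 from 38586247 to 38601415, had 9.96, 10.1 and 8.72 CPM in the CON libraries and 7.84, 7.37 and 8.75 CPM after sTREM-1. The groups overlapped by a narrow margin, since sTREM-1 replicate 3 lay just above CON replicate 3. The log2 fold change was -0.27 with a standard error of 0.10 (edgeR adjusted p = 0.0436), the largest change in size among the 10 genes. The call was lost in 7 of 12 alternative settings, among them DESeq2 (adjusted p = 0.0576), edgeR's exact test (adjusted p = 0.0583) and the fit with no filter on low counts (edgeR adjusted p = 0.0688). It was also lost without CON replicate 1, CON replicate 2, sTREM-1 replicate 1 or sTREM-1 replicate 2, with log2 fold changes of -0.24, -0.23, -0.26 and -0.22 and edgeR adjusted p-values of 0.126, 0.138, 0.105 and 0.16. The direction was down in all 12.

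Spry2, on chromosome 14 from 105891947 to 105896819, had 25.4, 24.0 and 27.6 CPM in the CON libraries and 26.9, 24.2 and 24.2 CPM after sTREM-1. The values of both groups were intermingled. The log2 fold change of -0.03 had a 95% interval from -0.16 to 0.10 (edgeR adjusted p = 0.759), and without CON replicate 3 it was 0.02. Spry1, on chromosome 3 from 37639947 to 37644598, had the lowest level per length of the 10 genes, at 2.64, 1.97 and 2.42 CPM without and 2.21, 1.81 and 2.44 CPM with sTREM-1, from 77 to 108 counts per library. At this depth the 95% interval of its log2 fold change ran from -0.55 to 0.30, around a value of -0.12 (edgeR adjusted p = 0.715). Leaving out 1 library gave log2 fold changes from -0.24 (without CON replicate 2) to -0.0142 (without sTREM-1 replicate 2), with -0.03 without CON replicate 1 and -0.22 without sTREM-1 replicate 3. A transcript of the opposite strand overlaps exons of Spry1 in GENCODE M21. The relative Spry3 had between 1 and 6 counts per library and was not tested.

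Of the ETS factor genes, Etv5 rose and Etv4 did not pass the test. Etv5, on chromosome 16 from 22381309 to 22439719, had 64.6, 62.9 and 65.4 CPM in the CON libraries and 67.6, 73.8 and 68.7 CPM after sTREM-1. The groups did not overlap, and sTREM-1 replicate 2 stood above the other 2 treated libraries. The level was 8.91% higher, a log2 fold change of 0.12 with a standard error of 0.04 and a 95% interval from 0.04 to 0.205 (edgeR adjusted p = 0.0184). Without sTREM-1 replicate 2 the log2 fold change was 0.08 (edgeR adjusted p = 0.161), and without CON replicate 2 it was 0.11 (edgeR adjusted p = 0.0787). Etv4, on chromosome 11 from 101769742 to 101785371, had 17.1, 16.99 and 16.3 CPM in the CON libraries and 13.7, 17.1 and 15.9 CPM after sTREM-1. One treated library was low, and the other 2 lay within or near the CON range. Its log2 fold change was -0.11 with a 95% interval from -0.28 to 0.05 (edgeR adjusted p = 0.324), and it was -0.03 without sTREM-1 replicate 1 and -0.19 without sTREM-1 replicate 2. Etv1, the remaining PEA3 gene, fell from 87.6 ± 1.68 to 80.8 ± 2.87 CPM (mean ± SD of 3 libraries). Its log2 fold change was -0.12 with a standard error of 0.04 (edgeR adjusted p = 0.0131). Both tested relatives, Spred3 and Etv1, were thus lower, but without sTREM-1 replicate 3 only 1 of them was called. The log2 ratio of Etv5 to Etv4 within a library was 1.94 ± 0.06 (SD, n = 3) in the CON group and 2.18 ± 0.11 (SD, n = 3) after sTREM-1. That of Etv5 to Etv1 was -0.45 ± 0.05 (SD, n = 3) and -0.21 ± 0.05 (SD, n = 3) in the same order. These are ratios of CPM, and per length Etv5 stood above Etv1 in the CON group, at 15.7 against 6.59 CPM per kilobase of exon.

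**Figure D2:**
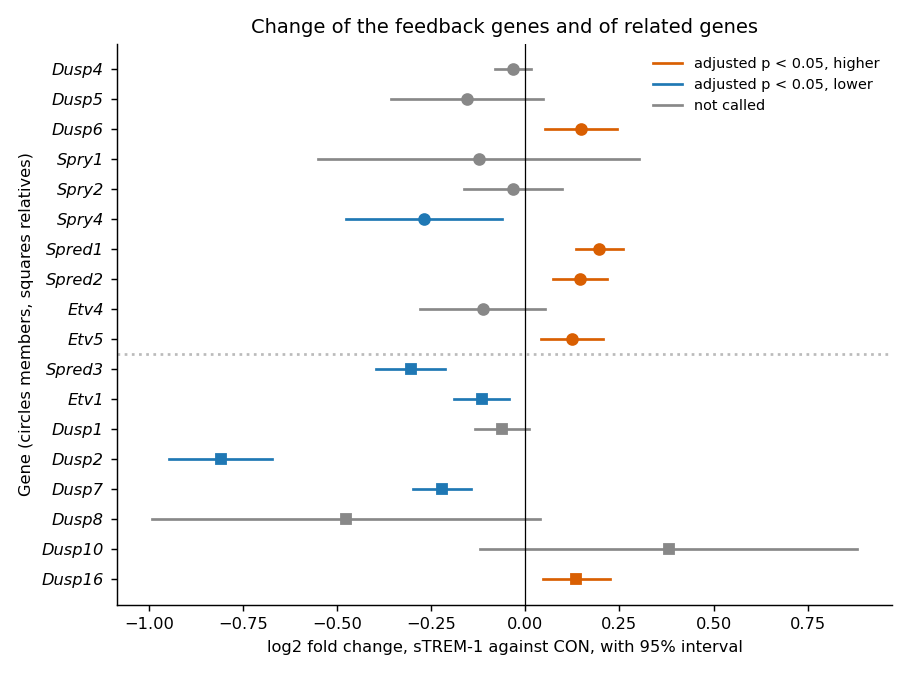
Log2 fold change of sTREM-1 against CON (horizontal axis) with its 95% interval for the 10 feedback genes (circles, above the dotted line) and the tested family relatives and other MAP kinase phosphatases (squares), in orange or blue where called higher or lower. Spred1 and Spred2 lie right of 0 and Spred3 left of it, and the longest fall is that of Dusp2.

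**Figure D3:**
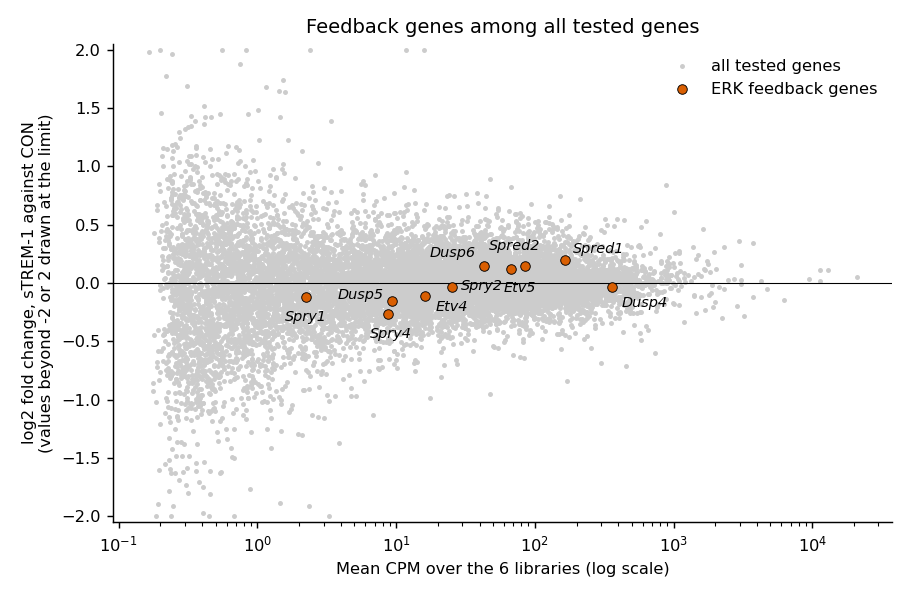
Log2 fold change (vertical axis) against mean CPM over the 6 libraries (horizontal axis, log scale) for all tested genes (grey) and the 10 feedback genes (orange). The 4 genes that rose have mean levels between 40.6 and 178 CPM in either group, and every feedback gene lies inside the cloud of the other genes.

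Apart from the within-library ratios of CPM, levels of different genes were compared only per length, as RPKM. RPKM is CPM per kilobase of the gene's joined GENCODE M21 exons, which may not be the transcripts the authors counted. In the CON group Dusp4 stood at 134 ± 1.82 RPKM (SD, n = 3), far above Spred1 at 22.9 ± 0.979 RPKM and Spred2 at 17.4 ± 0.563 RPKM (SD, n = 3 each). Etv5 followed at 15.7 ± 0.316 RPKM, Dusp6 at 13.0 ± 0.530 RPKM and Spry2 at 12.3 ± 0.868 RPKM (SD, n = 3 each). The libraries of Dusp6 and Spry2 overlapped in the CON group, from 12.4 to 13.5 RPKM and from 11.5 to 13.2 RPKM. After sTREM-1 they were apart, with 13.9 to 14.8 RPKM for Dusp6 and 11.6 to 12.9 RPKM for Spry2. The lower end was held by Etv4 at 5.41 ± 0.151 RPKM, Dusp5 at 3.99 ± 0.376 RPKM, Spry4 at 2.02 ± 0.163 RPKM and Spry1 at 0.807 ± 0.116 RPKM (SD, n = 3 each, CON group). All other neighbors in this order were separated in every CON library, and the order of the 10 genes was the same after sTREM-1.

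**Figure D4:**
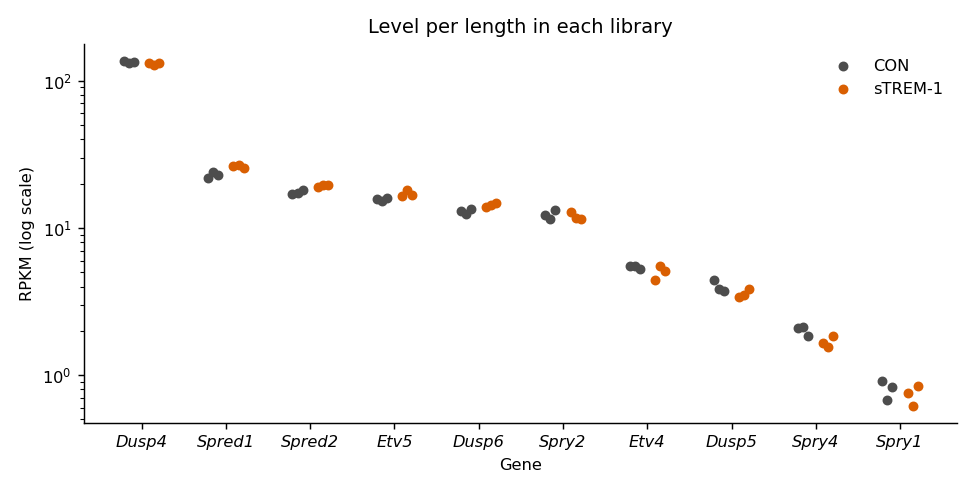
Level per length of the 10 feedback genes in each library, as RPKM on a log scale (vertical axis), with genes ordered by their CON mean. Points are libraries, grey for CON and orange for sTREM-1, and Dusp4 stands above 128 RPKM in all 6 while Spry1 stays below 1.

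The other MAP kinase phosphatases were read from a list of 7 genes, of which 6 were tested, 1 rose and 2 fell, where 30.5% of all tested genes were called in either direction. Dusp2, an inducible nuclear phosphatase of immune cells, had 27.5, 27.0 and 26.0 CPM in the CON libraries and 14.8, 16.3 and 14.8 CPM after sTREM-1. It fell 1.75-fold, a log2 fold change of -0.81 with a standard error of 0.07 (edgeR adjusted p = 6.3e-11), which was larger in size than the change of any of the 10 feedback genes. Dusp7, a cytoplasmic ERK phosphatase closely related to Dusp6, fell from 73.4 ± 1.01 to 63.0 ± 1.65 CPM (mean ± SD of 3 libraries), or by 0.22 on the log2 scale (edgeR adjusted p = 2.9e-05). The log2 ratio of Dusp6 to Dusp7 was -0.86 ± 0.05 (SD, n = 3) in the CON group and -0.49 ± 0.02 (SD, n = 3) after sTREM-1. Dusp16, which acts on JNK and p38, rose with a log2 fold change of 0.14 (edgeR adjusted p = 0.0159), a call that was lost without CON replicate 1, sTREM-1 replicate 2 or sTREM-1 replicate 3. The single gene of the list that was not tested, Dusp9, had 0 counts in all 6 libraries.

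In the core of the ERK cascade, 4 of 16 tested genes rose and 4 fell, with a median log2 fold change of -0.01, where 16.5% of all tested genes were called higher and 14.1% lower. Grb2, the receptor adaptor, rose from 138 ± 0.238 to 165 ± 6.22 CPM, and Map2k1, which encodes the ERK kinase MEK1, rose from 136 ± 4.601 to 162 ± 5.69 CPM (SD, n = 3 each). Their log2 fold changes were 0.26 and 0.25 (edgeR adjusted p = 4.3e-08 and 2.7e-07). The genes that fell included the scaffold Ksr1, the RAS exchange factor Sos2 and the phosphatase Ptpn11, with log2 fold changes of -0.14, -0.12 and -0.07 (edgeR adjusted p = 0.0178, 0.00334 and 0.0434). The number that fell was 1 without CON replicate 1, 2 without CON replicate 2, CON replicate 3, sTREM-1 replicate 2 or sTREM-1 replicate 3, and 3 without sTREM-1 replicate 1. Of the 6 tested inhibitors of RAS and RAF signaling, 2 rose and 3 fell, beside the same shares of all tested genes. The falls were those of Nf1, Rasa2 and Rasa1, which encode GTPase-activating proteins of RAS, with log2 fold changes of -0.25, -0.18 and -0.17 (edgeR adjusted p = 4.0e-07, 0.00149 and 4.2e-05). Nf1 encodes neurofibromin, the protein that Spred proteins recruit, and it had 187, 172 and 187 CPM in the CON libraries and 151, 158 and 152 CPM after sTREM-1. The ETS repressor Erf and the GTPase-activating protein gene Rasa3 rose, with log2 fold changes of 0.20 and 0.13 (edgeR adjusted p = 6.5e-04 and 0.00507).

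Among 10 tested ERK-regulated kinase and ETS factor genes, 2 fell and 8 did not pass edgeR's test, where 16.5% of all tested genes were called higher and 14.1% lower. In this list 0 were higher in edgeR, in DESeq2 or at an unadjusted edgeR p under 0.05. Of all tested genes, 2324, 2136 and 2874 were higher by these rules, in the same order. The number that fell was 1 without CON replicate 1, CON replicate 3 or sTREM-1 replicate 2. Rps6ka2, which encodes a ribosomal S6 kinase downstream of ERK, fell from 33.7 ± 2.57 to 20.9 ± 0.602 CPM (mean ± SD of 3 libraries), or by 0.69 on the log2 scale (edgeR adjusted p = 2.6e-10). Elk3, an ETS partner of serum response factor, fell with a log2 fold change of -0.17 (edgeR adjusted p = 0.0264). Of the 10 tested transcripts in a list of other ERK-responsive genes, 1 rose and 5 fell, and the median log2 fold change was -0.24, where 16.5% of all tested genes were called higher and 14.1% lower. Without CON replicate 3 or sTREM-1 replicate 3 the number that fell was 3. Fos, an immediate early gene, had 59.3, 60.0 and 62.9 CPM in the CON libraries and 43.6, 39.1 and 41.6 CPM after sTREM-1, a log2 fold change of -0.55 (edgeR adjusted p = 5.5e-11). Egr3 fell with a log2 fold change of -0.44 (edgeR adjusted p = 0.0121). For Epha2 there were 27, 12 and 10 counts in CON and 1, 8 and 1 in sTREM-1 libraries (edgeR adjusted p = 0.0113), and at so few counts its fold change is not given. The early response gene Ier3 rose from 134 ± 2.53 to 147 ± 0.545 CPM (mean ± SD of 3 libraries), or by 0.14 on the log2 scale (edgeR adjusted p = 5.2e-04).

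**Figure D5:**
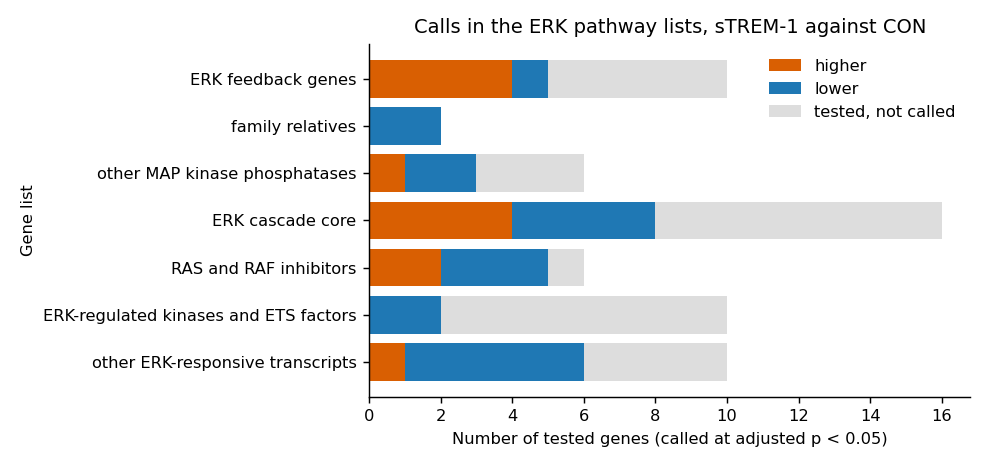
Number of tested genes (horizontal axis) called higher (orange), called lower (blue) or not called (grey) at an adjusted p-value under 0.05 in each ERK pathway list. The feedback genes hold 4 higher and 1 lower, the cascade core 4 and 4, and the other ERK-responsive transcripts 1 and 5.

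The genes whose profile over the 6 libraries was most like that of Dusp6, among 9053 genes of at least 10 CPM, were Smarca4, R3hdm1 and Zfp143, with Pearson's r of 0.995, 0.994 and 0.993. This is a ranking over 6 libraries that share the same 2 groups, given as a description. Smarca4, a chromatin remodeling ATPase, had a log2 fold change of 0.22 and R3hdm1 of 0.13, while Zfp143, also at 0.13, did not pass the test (edgeR adjusted p = 0.0538).

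The libraries held between 40070633 and 45877107 counts. The mean chi-square per gene between libraries of the same group was 3.45 to 4.99, against 20.3 to 22.3 between groups. Each library was kept as a replicate, although these values cannot show whether the cultures were separate. Microglia and macrophage markers summed to 3062 to 3085 CPM in the CON libraries and 3312 to 3378 CPM after sTREM-1. Of the 11 tested markers, 5 were called higher and 1 lower, where 16.5% of all tested genes were called higher and 14.1% lower. Most of the rise in the sum was that of Csf1r, from 521 ± 3.13 to 753 ± 20.5 CPM (SD, n = 3 each, edgeR adjusted p = 2.9e-17). Fcer1g, named after its values were seen, fell from 384 ± 4.67 to 348 ± 4.97 CPM (SD, n = 3 each, edgeR adjusted p = 1.6e-05). Aif1 had 0 counts in all 6 libraries and Cx3cr1, Tmem119 and P2ry12 were at most 2.18 CPM, with Cx3cr1 among the 5 called higher. The part of these differences in the results was not tested. The summed neuron, astrocyte and fibroblast markers were at most 0.302, 1.26 and 0.561 CPM in any library, and 1 of 6, 2 of 6 and 3 of 6 of them had no count at all. Oligodendrocyte markers summed to 7.31 to 7.94 CPM in the CON libraries and 5.63 to 6.70 CPM after sTREM-1, and their part in the results was not tested.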

How the data were processed

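Gene expression was measured by RNA-seq in 3 CON and 3 sTREM-1 libraries of BV2 cells. The labels give n = 3 per group, without saying of what, and the methods a larger number, and the 3 libraries of each group in the table were used. According to the methods, reads were checked with FastQC, quantified as FPKM with RSEM (FPKM values were not used here) and compared with edgeR. The submitters' processing notes name HISAT2 2.0.4 and the human builds hg19 and GRCh38, although the samples and symbols are of the mouse, so the build behind the table is unsettled and coordinates here come from GENCODE M21 (GRCm38). The deposited values are raw counts, 1 whole number for each gene symbol and library, without normalization by the authors. Strand use is not given in the sources used here.

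Here edgeR 4.0.16 in R 4.3.3 was used to filter low counts (filterByExpr, minimum 10), to scale libraries (TMM) and to run the quasi-likelihood test without covariates. P-values were adjusted by Benjamini-Hochberg over 14120 genes. CPM values are scaled by TMM library sizes. Standard errors are the size of the log2 fold change over the root of F, and log2 CPM values for the ranking against Dusp6 used a prior count of 2. The alternatives comprised RLE scaling, no filter, at least 10 counts in every library, a fit blocked on replicate number, DESeq2 1.42.0, the exact test of edgeR, each library left out, and other call rules. The procedure was tested on simulated counts.

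The named genes are the 10 feedback genes, their relatives Spry3, Spred3 and Etv1, at most 3 genes per direction and list with an adjusted p-value under 0.05, groups that do not overlap and the largest change, the 3 genes most like Dusp6, and markers, some of which are not reported here. The feedback genes and the lists were chosen with earlier results of these data known. Counting error was not separated from the spread between libraries, and it weighs most on genes of few counts, among them Spry1, Spry4 and Dusp5.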

Additional observations from a re-analysis of the deposited data

How the results depend on the processing

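Of the 10 feedback genes, Dusp4, Dusp5, Spry1, Spred1, Spred2 and Etv4 kept their direction and their side of the threshold under all 12 settings. Spry4 was no longer past it without a filter on low counts (log2 fold change -0.27, edgeR adjusted p = 0.0688), with DESeq2 (-0.27, adjusted p = 0.0576) and with edgeR's exact test (-0.27, adjusted p = 0.0583), so these gave 0 lower feedback genes. Across the fits that left out 1 library, the log2 fold change ran from -0.34 to -0.22 for Spry4, from 0.12 to 0.18 for Dusp6 and from 0.0824 to 0.15 for Etv5, and that of Spry2 from -0.087 to 0.0206, with a reversed sign without CON replicate 3 (0.0206). In those fits 2 to 4 feedback genes were higher and 0 to 1 lower, and their median ran from -0.0623 to -0.0075. At 1.2-fold or more, 0 feedback genes were higher and 1 lower, where 10.7% of all tested genes were called (836 higher, 681 lower). At 1.5-fold or more 0 and 0 were, where 2.13% were called (130 higher, 171 lower). At 1.2-fold and at 1.5-fold, lower family relatives numbered 1 and 0, other phosphatases 0 and 0 higher and 1 and 1 lower, core genes 2 and 0 higher and 0 and 0 lower, RAS and RAF inhibitors 0 and 0 in either direction, and ERK-regulated kinase and ETS factor genes 1 and 1 lower. Other ERK-responsive transcripts numbered 0 and 0 higher, and 1 lower at 1.5-fold. Leaving out 1 library gave 1 to 2 lower relatives, 0 to 1 higher phosphatases, 1 to 3 lower core genes, 1 to 2 lower kinase and ETS factor genes and 3 to 4 lower ERK-responsive transcripts. With the replicate block, 2474 genes were higher and 2139 lower, and no call of a feedback gene changed. Libraries with the same number did not deviate together from the means of their groups (correlations across genes of -0.02, -0.03 and -0.01). These values cannot show whether cultures of the same number were handled together, so the block is not read as a pairing. Causes of these changes were not tested. Where 1 library was left out, the loss of its values and the smaller number of libraries cannot be told apart. Depth limits Spry1 most, with 77 to 108 counts per library, followed by Spry4 with 314 to 416 and Dusp5 with 369 to 447.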

Other observations

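Some genes known as targets or relatives of the pathway were listed at 0 counts in all 6 libraries, among them Egr1, Epha4 and Dusp9, picked after their values were seen. In the same libraries Fos had 1652 to 2568 counts and Egr2 and Egr3 had 91 to 137 and 149 to 256 counts. The microglia marker Aif1 was also listed at 0. Whether these genes lacked transcripts or were lost in the counting was not tested.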
